A study of Sus scrofa with 9 samples.

Results

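The genes described here encode Toll-like receptors (TLR1, TLR2, TLR3, TLR4, TLR7, TLR8 and TLR9), the signalling adaptor MYD88, and CD14 and LY96, the proteins that present bacterial lipopolysaccharide to TLR4. They were taken by name, as 10 genes out of 12361 that had a probe set with a single gene symbol on the array, and all 10 were measured, by 14 of the 19124 probe sets. Where a gene had several probe sets, the brightest on average over the 9 arrays stands for it. Kidney biopsies came from 9 male Yorkshire pigs of 30 kg, with 1 Affymetrix array per animal and 3 animals in each group. In every animal 1 kidney underwent 30 min of warm ischemia, was removed, flushed and put back into the same pig, and the opposite kidney was then taken out. Before they were put back, NEVKP kidneys were kept for 8 h by normothermic ex vivo kidney perfusion, that is, with warm fluid pumped through the organ outside the animal. SCS kidneys were kept for 8 h by static cold storage, that is, chilled and without flow. No Storage kidneys were put back directly. Biopsies were taken on day 3 after surgery, so all groups, No Storage included, had been through warm ischemia and transplantation, and no kidney without ischemia was compared here.

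Toll-like receptors recognise molecules of microbes, and material that leaks from injured cells has also been described as a ligand for some of them. TLR1, TLR2 and TLR4 sit at the cell surface, where TLR1 pairs with TLR2 and where LY96 and CD14 work with TLR4. TLR3, TLR7, TLR8 and TLR9 bind nucleic acids inside endosomes. Most of the family signals through MYD88 to NF-kappaB and interferon regulatory factors, while TLR3 uses the adaptor TICAM1 and TLR4 uses both routes. In the kidney, these receptors are found on macrophages and other leukocytes and on tubular cells, and TLR2 and TLR4 have been studied in mouse models of ischemia and reperfusion.

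Values are log2 intensities per probe set, on which a difference of 1 is a doubling, and they are comparable between arrays for a given probe set but not between probe sets. The array medians lay between 5.70 and 5.80, and the correlation of any pair of arrays over probe sets was between 0.974 and 0.991. The biopsies carried kidney transcripts. UMOD, made by the thick ascending limb, averaged 12.38 in NEVKP, 9.98 in SCS and 12.20 in No Storage, and LRP2, a receptor of the proximal tubule, 11.99, 12.06 and 12.37 in those groups. SCS replicate 2 and NEVKP replicate 2 had the lowest array weights, 0.464 and 0.565, in a fit that weights arrays by their agreement with their group. Those arrays also held the extremes of several genes below. Many of the counts and medians below are also given without 1 of them, mainly where the move was large. A value given alone may still move when an array is left out. With 3 arrays a group, precision is limited by their number. A biopsy mixes many cell types, so that a change in the number of cells that carry a transcript and a change in the transcript per cell cannot be told apart.

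In the comparison of NEVKP with No Storage, which asks how warm perfusion compares on day 3 with no storage at all, 9 of the 10 genes had a positive difference, that is, higher in NEVKP, and 1 a negative one (48.5% and 51.5% of all 12361 genes). TLR7 showed the largest log2 difference of the 10, at 0.83, ahead of TLR4 (0.71), TLR8 (0.52), TLR2 (0.51), TLR9 (0.50) and TLR1 (0.35). MYD88, LY96 and CD14 differed by 0.22, 0.08 and -0.02. None of the 10 passed an adjusted p of 0.05 in limma, which fits all 19124 probe sets together and adjusts by Benjamini-Hochberg, and in this comparison 0 probe sets passed, 0%. At an unadjusted p under 0.05, 6 of the 10 were higher and 0 lower, where 5.16% of all 12361 genes were higher and 4.76% lower. Arrays of the groups did not overlap for 4 of the 10, all higher in NEVKP, beside 8.74% of all genes that were higher and 9.31% that were lower without overlap. The median log2 difference over the 10 genes was 0.42, and over all genes it was -0.0070, with quartiles of -0.14 and 0.13. The count of 6 was 0 without NEVKP replicate 2, 0 without No Storage replicate 2, 2 without No Storage replicate 1, 3 without No Storage replicate 3 and 3 after centring arrays on their medians. The median was 0.30 without NEVKP replicate 2.

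SCS against No Storage asks the same of cold-stored kidneys. Differences were positive for 8 of the 10 genes and negative for 2 (50.0% of all genes each). LY96 had the largest log2 difference of the 10, at 0.79, and TLR4 (0.51), TLR9 (0.42) and TLR8 (0.36) followed. TLR1 and TLR3 lay on the other side of 0, at -0.12 and -0.11. Again none of the 10 passed in limma, while 31 of all probe sets did, 0.162%. LY96 was the only one of the 10 at an unadjusted p under 0.05, against 7.79% of all genes higher and 9.05% lower. LY96 and TLR9 were higher in SCS without overlap between arrays, as were 11.7% of all genes, with 13.3% lower. The median over the 10 was 0.22, beside 0.00017 over all genes. It was 0.09 without SCS replicate 1 and 0.42 without SCS replicate 2, and the count at an unadjusted p under 0.05 was 4 without SCS replicate 2, 3 without NEVKP replicate 2, and 2 without NEVKP replicate 1, NEVKP replicate 3 or SCS replicate 3. Since the No Storage arrays enter this comparison and the one of NEVKP with No Storage, values of the 2 are not independent.

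NEVKP against SCS sets both ways of keeping the kidney against each other. Differences were positive for 8 of the 10 genes and negative for 2 (49.1% and 50.9% of all genes). They were largest for TLR7 (0.65) and TLR1 (0.47) on the positive side and for LY96 (-0.71) on the negative side. Without SCS replicate 2 the TLR7 difference was 0.28, below that of TLR1 (0.44). None of the 10 passed in limma, and 0 of all probe sets did, 0%. TLR1 was higher and LY96 lower at an unadjusted p under 0.05, shares of all genes being 4.42% higher and 3.29% lower. TLR1 alone of the 10 had groups that did not overlap, higher in NEVKP as in 5.83% of all genes, with 6.56% lower. The count of 1 higher was 3 without SCS replicate 3 and 2 without NEVKP replicate 1 or NEVKP replicate 3. The median over the 10 was 0.17, beside -0.0045 over all genes. Without NEVKP replicate 2 it was -0.0065, and without SCS replicate 2 it was 0.04. A moderated F test over the 3 groups gave none of the 10 an adjusted p under 0.05, with 1 of 19124 probe sets past it, and 3 of the 10 (LY96, TLR1 and TLR7) an unadjusted p under 0.05, as had 12.8% of all probe sets.

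**Figure D1:**
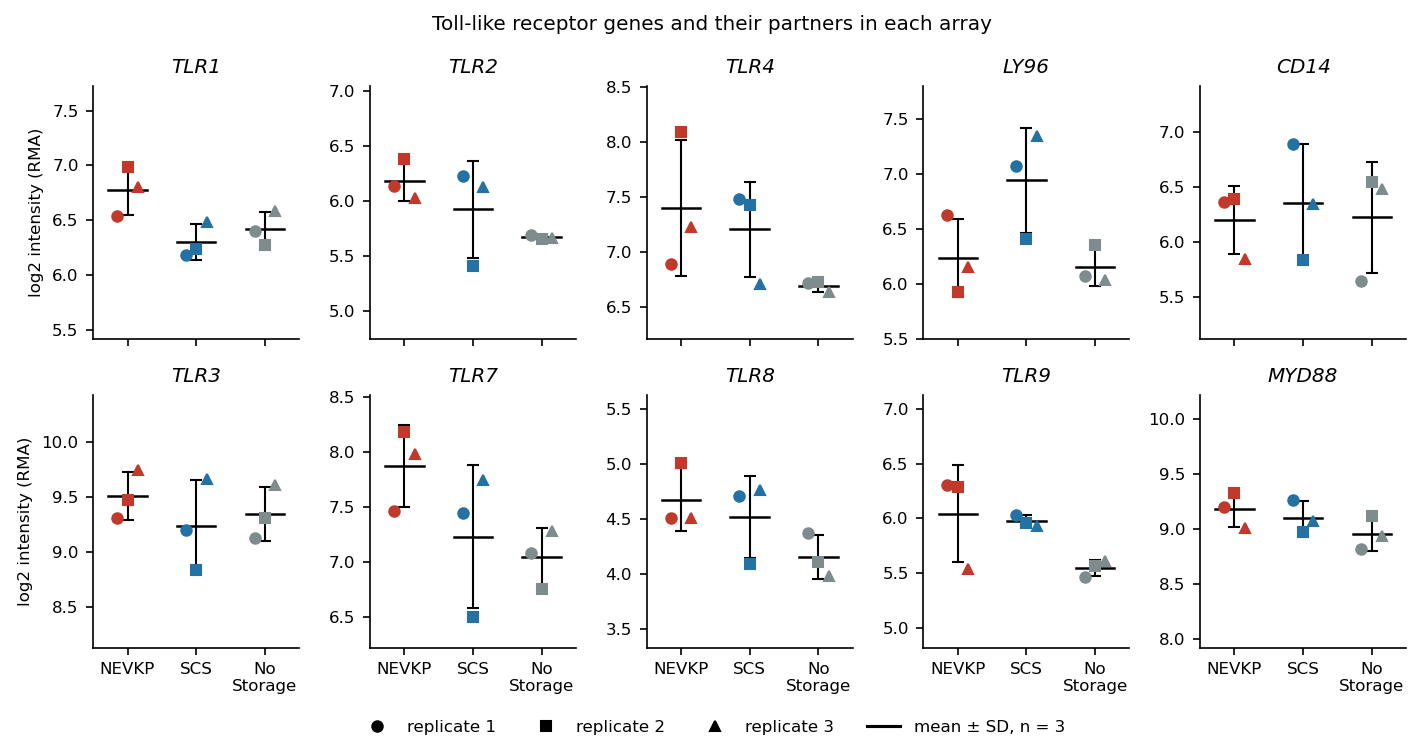
Log2 intensity of each gene (vertical axes, all spanning the same width) in the 9 arrays, grouped as NEVKP, SCS and No Storage. Marker shapes give the replicate, bars the mean ± SD of 3 arrays. The No Storage arrays of TLR2 lie between 5.65 and 5.69, below all 3 NEVKP arrays, and LY96 is highest in SCS replicates 1 and 3.

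Among the surface receptors, TLR2 recognises bacterial lipopeptides. Its values were 6.14, 6.38 and 6.03 in NEVKP replicates 1, 2 and 3, then 6.23, 5.42 and 6.13 in SCS, and 5.69, 5.65 and 5.67 in No Storage. All NEVKP arrays lay above all No Storage arrays, whereas SCS replicate 2 was the lowest of the 9. NEVKP exceeded No Storage 1.43-fold (log2 difference 0.51, 95% interval 0.06 to 0.96, limma adjusted p = 0.512), and SCS did so 1.19-fold (log2 difference 0.25, interval -0.20 to 0.70, limma adjusted p = 0.613). A further TLR2 probe set was dim, meaning that its mean of 3.88 lay among the lowest 25% of all probe sets, and it gave log2 differences of 0.48 for NEVKP and 0.10 for SCS against No Storage.

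TLR1 had values of 6.54, 6.99 and 6.81 in NEVKP, 6.19, 6.24 and 6.49 in SCS and 6.40, 6.28 and 6.59 in No Storage. NEVKP arrays lay above SCS arrays without overlap, whereas NEVKP replicate 1 fell inside the No Storage range. NEVKP exceeded SCS by 0.47 (SE 0.15, interval 0.13 to 0.82, limma adjusted p = 0.599) and No Storage by 0.35 (limma adjusted p = 0.541), and SCS differed from No Storage by -0.12 (limma adjusted p = 0.779). A further probe set carried exactly the same values. The third, with lower intensity, gave 0.37 for NEVKP against SCS, 0.20 for NEVKP against No Storage and -0.17 for SCS against No Storage. TLR1 lies between TLR10 and TLR6 in the RefSeq gene order of pig assembly Sscrofa11.1, and signal shared between these related genes was not tested.

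TLR4 is the lipopolysaccharide receptor. Its values were 6.89, 8.09 and 7.23 in NEVKP, 7.48, 7.43 and 6.71 in SCS and 6.71, 6.73 and 6.63 in No Storage. The No Storage arrays lay close together (mean 6.69, SD 0.05), and the NEVKP and SCS means of 7.40 and 7.20 had SDs of 0.62 and 0.43 (n = 3 each). All NEVKP arrays were above all No Storage arrays, and SCS replicate 3 stood at the No Storage level. The log2 difference was 0.71 for NEVKP (interval 0.06 to 1.36, limma adjusted p = 0.528) and 0.51 for SCS (interval -0.14 to 1.17, limma adjusted p = 0.446) against No Storage. Without NEVKP replicate 2 the NEVKP difference was 0.37.

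LY96, also called MD-2, is the subunit of the TLR4 complex that holds the lipid part of lipopolysaccharide. It had values of 6.62, 5.93 and 6.15 in NEVKP, 7.07, 6.41 and 7.34 in SCS and 6.07, 6.35 and 6.03 in No Storage. Every SCS array was above every No Storage array, and NEVKP arrays lay below, inside and above the No Storage range. SCS exceeded No Storage 1.73-fold (log2 difference 0.79, SE 0.25, interval 0.24 to 1.34, unadjusted p = 0.00968, limma adjusted p = 0.166). NEVKP differed from No Storage by 0.08 (interval -0.47 to 0.63, limma adjusted p = 0.957) and from SCS by -0.71 (interval -1.26 to -0.15, limma adjusted p = 0.602). Over all alternatives the SCS difference from No Storage ran from 0.59 to 1.05 and its limma adjusted p from 0.0732 to 0.406. TLR4 and LY96 did not share their highest array. NEVKP replicate 2 was the highest of 9 for TLR4 and the lowest of 9 for LY96. SCS replicate 3 was the highest for LY96 and at the No Storage level for TLR4. SCS replicate 1 was high for both, at 7.48 for TLR4 and 7.07 for LY96, each exceeded only by the highest array of that gene.

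CD14 passes lipopolysaccharide to the TLR4 complex and is a marker of monocytes. Its values were 6.37, 6.39 and 5.84 in NEVKP, 6.90, 5.84 and 6.35 in SCS and 5.65, 6.55 and 6.48 in No Storage. All groups overlapped. The log2 differences against No Storage were -0.02 for NEVKP (interval -0.70 to 0.65) and 0.13 for SCS (interval -0.54 to 0.81), and NEVKP differed from SCS by -0.16 (interval -0.84 to 0.52).

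**Figure D2:**
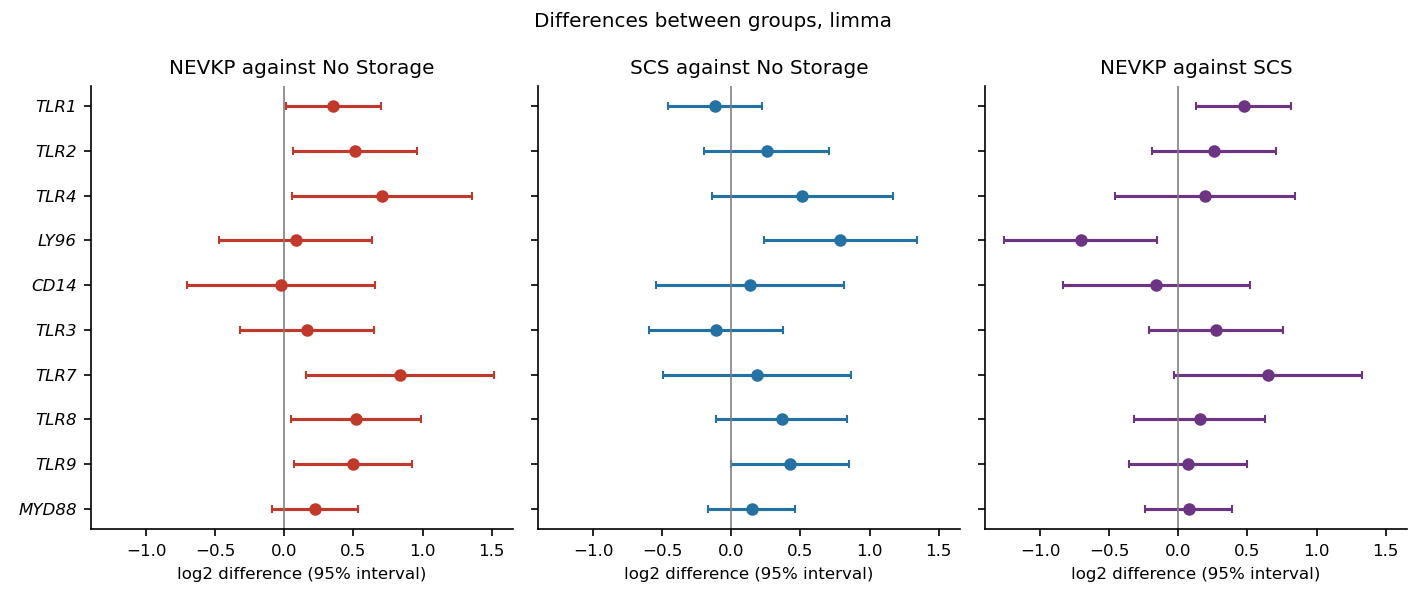
Log2 difference of each gene (horizontal axis, points) with its 95% interval from limma (bars) in the 3 comparisons. Intervals leave out 0 for 6 genes in NEVKP against No Storage, for LY96 in SCS against No Storage, and for TLR1 and LY96 in NEVKP against SCS, before any adjustment for the number of probe sets.

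Of the endosomal receptors, TLR7 and TLR8 bind single-stranded RNA, and their genes are neighbours in the RefSeq order of Sscrofa11.1. TLR7 had values of 7.46, 8.18 and 7.98 in NEVKP, 7.44, 6.49 and 7.74 in SCS and 7.08, 6.75 and 7.28 in No Storage. NEVKP and No Storage arrays did not overlap, and SCS replicate 2 was again the lowest of all. NEVKP exceeded No Storage 1.78-fold (log2 difference 0.83, SE 0.31, interval 0.15 to 1.52, limma adjusted p = 0.475) and SCS by 0.65 (interval -0.03 to 1.33, limma adjusted p = 0.678). SCS differed from No Storage by 0.19 (interval -0.49 to 0.87), by 0.55 without SCS replicate 2 and by -0.07 without SCS replicate 3.

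TLR8 values were 4.51, 5.01 and 4.51 in NEVKP, 4.70, 4.09 and 4.77 in SCS and 4.38, 4.11 and 3.98 in No Storage. The NEVKP arrays were above the No Storage arrays without overlap, and SCS replicates 1 and 3 were too, with SCS replicate 2 inside the No Storage range. The log2 difference from No Storage was 0.52 for NEVKP (limma adjusted p = 0.523) and 0.36 for SCS (limma adjusted p = 0.459). TLR2, TLR7 and TLR8 thus shared their highest array, NEVKP replicate 2, and in each of them SCS replicate 2 was the lowest of the SCS arrays. MYD88 had the same pattern, and SCS replicate 2 was also the lowest SCS array for TLR3, CD14 and LY96.

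TLR9 binds DNA that carries unmethylated CpG. Its main probe set read 6.30, 6.29 and 5.54 in NEVKP, 6.03, 5.96 and 5.93 in SCS and 5.47, 5.57 and 5.61 in No Storage. SCS arrays were tightly grouped (SD 0.05) and above all No Storage arrays, while NEVKP replicate 3 stood within the No Storage range. SCS differed from No Storage by 0.42 (SE 0.19, unadjusted p = 0.0506, limma adjusted p = 0.323) and NEVKP by 0.50 (interval 0.07 to 0.92, limma adjusted p = 0.508). The other TLR9 probe set did not follow in NEVKP. It read 4.86, 5.02 and 4.59 in NEVKP, 5.06, 5.17 and 5.22 in SCS and 4.93, 4.79 and 5.09 in No Storage, for log2 differences of -0.12 (NEVKP against No Storage), 0.21 (SCS against No Storage) and -0.33 (NEVKP against SCS, limma adjusted p = 0.655). The direction of TLR9 in NEVKP kidneys therefore depends on the probe set.

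TLR3, the receptor for double-stranded RNA, overlapped in every comparison. Its values were 9.31, 9.47 and 9.74 in NEVKP, 9.20, 8.84 and 9.67 in SCS and 9.12, 9.30 and 9.61 in No Storage. SCS replicate 2 was the lowest of the 9 arrays and NEVKP replicate 3 the highest. NEVKP differed from No Storage by 0.16 (interval -0.32 to 0.64), SCS from No Storage by -0.11 (interval -0.59 to 0.37) and NEVKP from SCS by 0.27 (interval -0.21 to 0.75), with limma adjusted p from 0.781 to 0.872.

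MYD88 had the narrowest spread of the 10, a within-group SD of 0.15. It read 9.19, 9.33 and 9.01 in NEVKP, 9.26, 8.97 and 9.07 in SCS and 8.81, 9.12 and 8.93 in No Storage, and the groups overlapped. NEVKP differed from No Storage by 0.22 (interval -0.09 to 0.54), SCS from No Storage by 0.15 (interval -0.17 to 0.46) and NEVKP from SCS by 0.07 (interval -0.24 to 0.39).

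Seen by array, NEVKP replicate 2 held the highest value of the 9 arrays for 6 of the 10 genes (TLR1, TLR2, TLR4, TLR7, TLR8 and MYD88). SCS replicate 2 held the lowest for TLR2, TLR3 and TLR7. Relative to the No Storage mean of each gene, 9, 9 and 7 of the 10 were higher in NEVKP replicates 1, 2 and 3, and 8, 4 and 10 in SCS replicates 1, 2 and 3. The No Storage arrays themselves had 4, 5 and 5. Markers of macrophages, which carry several of these receptors, were set beside them. Of 12 listed monocyte and macrophage markers, 10 were measured and none was dim. Their summed linear intensity ranged from 1206 to 1583 in NEVKP, 1048 to 1504 in SCS and 847 to 980 in No Storage. In this sum, where bright genes weigh most, neither stored group overlapped with No Storage. The mean log2 intensity of these markers was 6.58, 6.77 and 6.56 in NEVKP, 6.70, 6.34 and 6.47 in SCS and 6.34, 6.12 and 6.15 in No Storage. NEVKP replicate 2 was again the highest, and SCS replicate 2 was the lowest SCS array, just below No Storage replicate 1. By this mean SCS and No Storage therefore overlapped. None of these markers passed in limma. For NEVKP against No Storage, 6 of the 10 were higher and 1 lower at an unadjusted p under 0.05 (beside the 5.16% and 4.76% of all genes), and the count of 6 higher was 6 whichever array was left out. For SCS against No Storage, 4 were higher and 1 lower (7.79% and 9.05% of all genes). The lower gene was LST1 in both comparisons, at -0.59 in NEVKP and -0.67 in SCS. The part of macrophage number in the receptor values was not tested.

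Other cell types were checked in the same way. Of 10 neutrophil markers, 5 were measured, and S100A8, S100A9 and MPO were dim. The sum of the 5 was 104 to 117 in NEVKP, 134 to 216 in SCS and 73.5 to 117 in No Storage, and SCS was the highest group by this sum. By the mean log2 intensity the groups overlapped, SCS replicate 2 (4.04) lying just below No Storage replicate 2 and NEVKP replicate 3 (both 4.05). S100A12 was the brightest of the 5 genes. In SCS against No Storage it differed by 1.51, S100A9 by 0.32, CXCR2 by 0.29, S100A8 by 0.15 and MPO by -0.03. T and NK cell markers (10 of 10 measured) summed to 541 to 659 in NEVKP, 459 to 523 in SCS and 400 to 469 in No Storage. NKG7 and CD2 were the brightest of these. Differences from No Storage were positive for 7 of the 10 in NEVKP and 6 in SCS (48.5% and 50.0% of all genes). The median differences were 0.29 and 0.09. B and plasma cell markers (6 of 8 measured, PAX5 dim) had sums of 971 to 1839 in NEVKP, 634 to 2015 in SCS and 430 to 781 in No Storage. JCHAIN, the joining chain of secreted antibodies, was the one bright gene among them, 3 of the 6 had a positive difference from No Storage and 3 a negative one in each stored group, and the median differences were 0.12 in NEVKP and -0.06 in SCS. Endothelial markers (4 of 7 measured, none dim) summed to 834 to 1511 in NEVKP, 1105 to 1337 in SCS and 1302 to 1400 in No Storage. Differences from No Storage were positive for 1 of the 4 in each stored group. TEK was lower in SCS than in No Storage without overlap (-0.67), as were 13.3% of all genes. Markers of tubule and podocyte (7 of 12 measured, none dim) summed to 13866 to 16887 in NEVKP, 7884 to 11131 in SCS and 14082 to 18901 in No Storage, and SCS did not overlap with the other groups. The 7 genes did not move as one: in NEVKP against SCS the log2 difference was positive for UMOD (2.40), SLC12A1 (1.10) and AQP2 (0.76) and negative for SLC34A1 (-0.73), CUBN (-0.11), LRP2 (-0.07) and NPHS1 (-0.04). SLC34A1 differed by 1.02 in SCS against No Storage, on the opposite side to UMOD (-2.21). Their part in the receptor values was not tested.

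**Figure D3:**
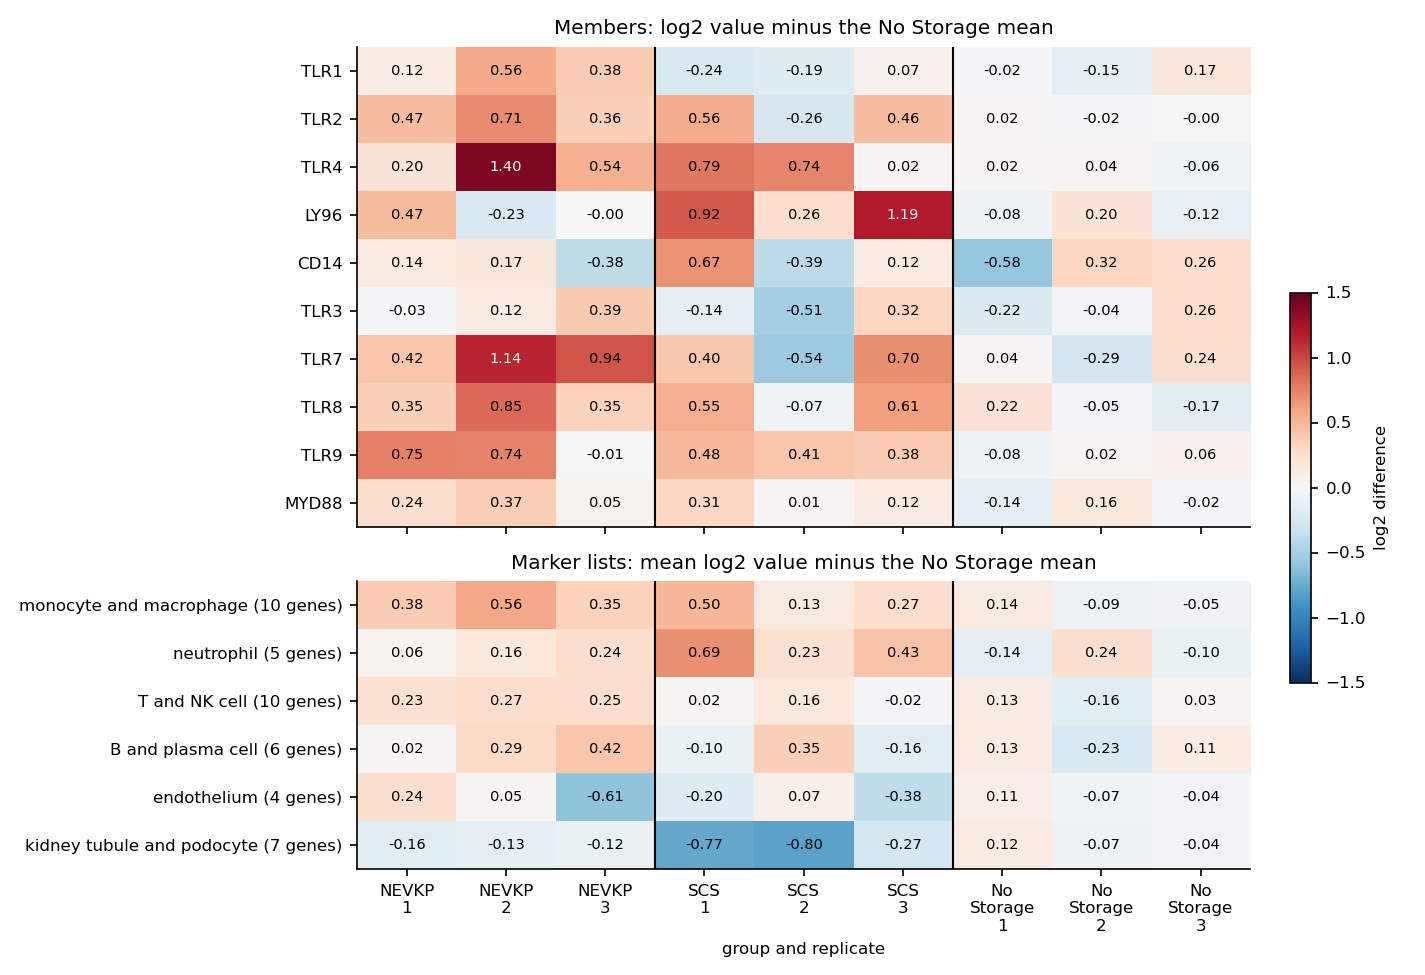
Difference from the No Storage mean on the log2 scale (colour and printed number) for the 10 genes (above) and for the mean of each marker list (below) in the 9 arrays, ordered as NEVKP, SCS and No Storage. TLR4 in NEVKP replicate 2 and LY96 in SCS replicate 3 are the darkest cells. The monocyte and macrophage row is above 0 in all NEVKP and SCS arrays and in No Storage replicate 1.

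The remaining genes of the pathway were read from lists by role. The lists were chosen with earlier results of these data known, so counts beside shares of all genes describe them and test nothing. None of their measured members passed in limma in any of the 3 comparisons, and counts below are at an unadjusted p under 0.05. Over all 12361 genes that limit gave 5.16% higher and 4.76% lower in NEVKP against No Storage, 7.79% and 9.05% in SCS against No Storage, and 4.42% and 3.29% in NEVKP against SCS. Among receptors outside the 10, 10 of 15 were measured, with 4 higher and 0 lower in NEVKP against No Storage and a median log2 difference of 0.33. They were CD180 (0.92), a relative of TLR4 on B cells and macrophages, the inflammasome sensor NLRP3 (0.57), the RNA sensor IFIH1 (0.88) and TLR6 (0.32), a TLR2 partner whose probe set was dim, with limma adjusted p from 0.439 to 0.508. The count was 2 without NEVKP replicate 2, No Storage replicate 1 or No Storage replicate 2, and IFIH1 was 0.51 without NEVKP replicate 3. The median was 0.24 without NEVKP replicate 2. In SCS against No Storage, 1 of the 10 was higher, a share near the 7.79% of all genes, NOD1 (0.51), a sensor of bacterial cell wall (0 without SCS replicate 1 or without any of the No Storage replicates), and the median was 0.05. NOD1 was 0.31 without SCS replicate 2, and the median was -0.03 without SCS replicate 3, -0.01 without No Storage replicate 2, 0.13 without SCS replicate 2 and 0.12 without No Storage replicate 3. Differences were positive for 5 of the 10 in this comparison (50.0% of all genes). CD36 was lower in SCS without overlap (-0.63, unadjusted p above 0.05), as were 13.3% of all genes. SCS replicate 2 was its lowest array of the 9 (7.02). TLR6 (0.33), CD180 (0.70) and IFIH1 (0.77) were the 3 of 10 higher in NEVKP against SCS (4.42% of all genes), 1 without SCS replicate 2. Without that array CD180 was 0.29 and IFIH1 0.49, and IFIH1 was 0.40 without NEVKP replicate 3.

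Adaptors, kinases and ligases carry the signal from MYD88 or TICAM1. Of 20 listed, 17 were measured, 2 of them higher in NEVKP against No Storage, namely the kinase BTK (0.79) and the ligase TRAF3 (0.42), beside 5.16% of all genes. The median was 0.07 and lay at 0.14 without NEVKP replicate 1, 0.11 without NEVKP replicate 3 and 0.13 without No Storage replicate 3, and the count was 1 without No Storage replicate 1. Of the same 17, 5 were higher in SCS against No Storage, among them BTK (0.65), RIPK1 (0.45), IKBKE (0.53) and IKBKB (0.46), beside 7.79% of all genes, with a median of 0.15. The count was 3 without SCS replicate 1, No Storage replicate 1 or No Storage replicate 3. In NEVKP against SCS, 1 of the 17 was higher (TRAF6, a ligase downstream of MYD88, 0.40) and 1 lower (IKBKG, the regulatory subunit of the IkappaB kinase, -0.44), shares near the 4.42% and 3.29% of all genes. The count of 1 higher was 0 without NEVKP replicate 1, NEVKP replicate 2 or SCS replicate 2.

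Genes that move or cut the endosomal receptors were measured for 6 of 10. CTSS, a protease of macrophage endosomes, had the smallest p in every comparison, at 0.73 for NEVKP (limma adjusted p = 0.318) and 0.43 for SCS (limma adjusted p = 0.204) against No Storage and 0.30 for NEVKP against SCS, the last 0.15 without SCS replicate 3. UNC93B1, the chaperone that brings the nucleic acid receptors to endosomes, differed from No Storage by 0.42 in NEVKP and 0.21 in SCS, with unadjusted p above 0.05 in both. Its NEVKP difference was 0.70 without NEVKP replicate 1 and 0.25 without NEVKP replicate 3. Its SCS difference was 0.12 without SCS replicate 3, 0.13 without No Storage replicate 1 and 0.34 without No Storage replicate 3. LGMN lay below No Storage without overlap in NEVKP (-0.29) and in SCS (-0.35), as did 9.31% and 13.3% of all genes. Its unadjusted p was above 0.05 in both, and SCS replicate 2 was the lowest of the 9 arrays (11.99). Of the 6, CTSS alone was higher in NEVKP against No Storage (3 genes without NEVKP replicate 1), and CTSS and CTSL (0.67) were in SCS against No Storage (0 without SCS replicate 1 and 1 without SCS replicate 3, NEVKP replicate 3 or any No Storage array), where all genes had 5.16% and 7.79%. Among genes that dampen the pathway, 8 of 16 were measured. NFKBIA (0.81), TNFAIP3 (0.91), both feedback inhibitors of NF-kappaB, and TRAFD1 (0.32) were the 3 higher in NEVKP against No Storage (5.16% of all genes). Without NEVKP replicate 2 NFKBIA was 0.45 and TNFAIP3 0.48. In SCS against No Storage IL1RL1 (1.63), the receptor for IL-33, was higher and the deubiquitinase CYLD lower (-0.31), while NFKBIA and TNFAIP3 differed by 0.56 and 0.64. That is 1 higher and 1 lower of 8, beside 7.79% and 9.05% of all genes, and IL1RL1 was 0.86 without SCS replicate 1. The count of higher genes was 0 without SCS replicate 1 or No Storage replicate 3 and 3 without NEVKP replicate 2 or NEVKP replicate 3. CYLD was higher in NEVKP than in SCS (0.42, limma adjusted p = 0.52).

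Transcription factors of the pathway had group means above those of No Storage in both stored groups. All 13 measured of 15 had positive differences of the means in each, beside 48.5% of all genes in NEVKP and 50.0% in SCS. In NEVKP, 7 of the 13 were higher at an unadjusted p under 0.05, led by IRF1 (0.81), IRF5 (0.47), JUN (0.54) and ATF3 (0.59, and 0.37 without NEVKP replicate 2), beside 5.16% of all genes, with a median of 0.43. In SCS, 9 of the 13 were, led by JUN (0.75, limma adjusted p = 0.0905), IRF5 (0.47), NFKB2 (0.46) and NFKB1 (0.38), beside 7.79% of all genes, with a median of 0.47. The NEVKP median was 0.33 without NEVKP replicate 2, and the SCS median was 0.39 without SCS replicate 2. NEVKP against SCS gave 0 of 13 in either direction and a median of -0.0018, which was -0.17 without NEVKP replicate 2. Leaving out any array kept the NEVKP count between 5 and 8 and the SCS count between 6 and 10.

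Target genes had the largest median of the lists in NEVKP against No Storage, at 0.89, which was 0.56 without NEVKP replicate 2. At an unadjusted p under 0.05, 16 of the 23 measured (of 25) were higher, 13 to 17 when any array was left out, beside 5.16% of all genes. CD86, a costimulatory ligand that is also among the macrophage markers, differed by 1.10, the chemokine genes CCL2 by 1.55, CCL4 by 0.69 and CXCL10 by 1.83 (limma adjusted p from 0.299 to 0.395). CXCL10 was 1.19 without NEVKP replicate 3. In SCS against No Storage the median was 0.40, with 8 of 23 higher and 1 lower (SOD2, -0.50), where all genes had 7.79% and 9.05%, the higher ones led by CCL2 (1.59, limma adjusted p = 0.0883), IL6 (1.52), the adhesion molecule VCAM1 (0.98) and CCL4 (0.46). That count of 8 was 3 without SCS replicate 1, 3 without No Storage replicate 2 and 4 without No Storage replicate 3. CXCL10 (1.58), CD86 (0.50) and SOD2 (0.43) were the 3 of 23 higher in NEVKP against SCS (4.42% of all genes), a count of 1 without NEVKP replicate 2, SCS replicate 2 or No Storage replicate 3 and of 5 without NEVKP replicate 1. CXCL10 was 0.94 without NEVKP replicate 3 and SOD2 0.21 without SCS replicate 2.

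Genes for tissue molecules described as Toll-like receptor ligands, mostly matrix and alarmin proteins, were measured for 13 of 15, and S100A8, S100A9 and FGA were dim. Of the 13, 8 were higher in SCS against No Storage (7.79% of all genes), led by FN1 (fibronectin, 1.28, limma adjusted p = 0.0513), S100A12 (1.51), also a neutrophil marker, and the proteoglycan genes VCAN (1.30) and BGN (0.77). That count was 5 without No Storage replicate 2 and 4 without SCS replicate 1. In NEVKP against No Storage 4 were higher, VCAN (1.24), TNC (1.61), BGN (0.63) and DCN (0.73), beside 5.16% of all genes, and 2 without NEVKP replicate 2. Without that array BGN was 0.41 and DCN 0.47, and DCN was 0.46 without No Storage replicate 2. NEVKP had lower values than SCS for 3 of 13 (3.29% of all genes), FN1 (-0.82), S100A9 (-0.39) and S100A12 (-0.84), with limma adjusted p from 0.52 to 0.648.

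**Figure D4:**
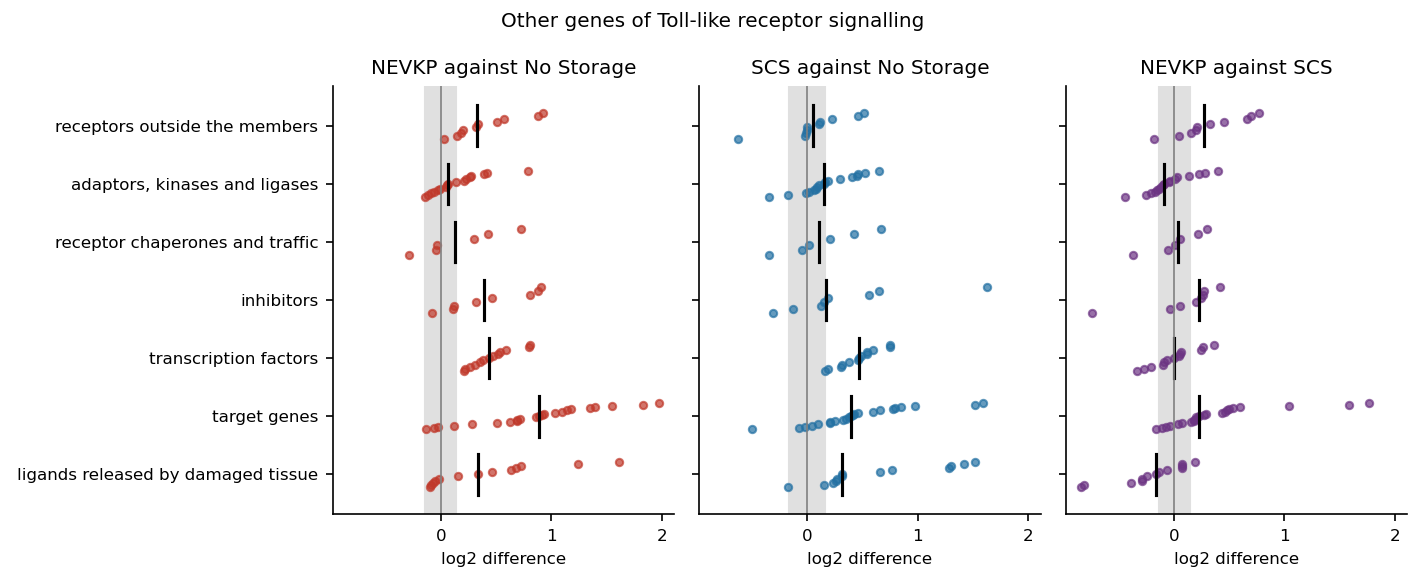
Log2 difference of every measured gene of each list (horizontal axis, points), the list's median (black bar) and the middle 50% of all 12361 genes (grey band) in the 3 comparisons. The median of the target genes is 0.89 in NEVKP against No Storage, 0.40 in SCS against No Storage and 0.23 in NEVKP against SCS (0.12 to 0.42 when an array was left out, lowest without NEVKP replicate 2 and highest without NEVKP replicate 1).

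The genes whose values followed a receptor most closely over the 9 arrays were found by Pearson correlation over all named genes and are given as a description, with no test. The 9 values of each pair come from the same arrays. Nearest to TLR4 were NRG3 (0.99), STAB1 (0.96) and TRAF3IP2 (0.96), and nearest to TLR2 were TNFSF8 (0.98), TMED2 (0.96) and BCLAF1 (0.95). TLR7 was followed by SH3GLB1 (0.96), ELF1 (0.95) and SERPINB1 (0.92). TLR8 was followed by GP91-PHOX (0.95), which encodes a subunit of the phagocyte NADPH oxidase, DNASE2 (0.93) and PLEK (0.91). The nearest to LY96 was ANXA13 (0.96), to MYD88 TIPIN (0.98), to CD14 DCUN1D5 (0.97), to TLR9 SAV1 (0.94) and to TLR3 LBX2 (0.93). For TLR1 they were SMAD4 (0.98) and the class II gene SLA-DQB1 (0.97). Correlations of the deviations from group means were 0.99 for NRG3 with TLR4, 0.93 for GP91-PHOX with TLR8, 0.91 for SLA-DQB1 with TLR1 and 0.85 for SERPINB1 with TLR7. Each gene was picked for its high correlation among all named genes over 9 arrays, so high values come in part from that choice.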

How the data were processed

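The deposited log2 intensities, 1 per probe set and array, came from the authors' RMA (background correction, scaling between arrays and probe summary), per the submitters' processing notes, which also name limma 3.34.14. The sources used here do not give the array type or any filter. Of 19124 probe sets, 13680 were in the array's annotation, 13323 with 1 symbol and 357 with several, giving 12361 genes. For 12925 of the 13323 probe sets the gene ID was in the RefSeq table of Sscrofa11.1, and the symbols of 7 probe sets were updated by it. limma 3.58.1 in R 4.3.3 was fitted to all 9 arrays with group as the factor (6 residual and 4.12 prior degrees of freedom), tested first on simulated data. P-values were adjusted over all probe sets, and every adjusted p is limma's. Arrays are from separate animals. Probe sets with a mean under 3.92 (lowest 25%) were called dim. The 10 genes were named by symbol, up to 4 genes of each list by unadjusted p, and up to 3 genes nearest each receptor by correlation. Genes and lists were chosen with earlier results of these data known. Alternatives were a trended robust prior, a block for replicate number, array weights, leaving out dim probe sets, median centring, the compared groups alone, averaging all probe sets of a gene and leaving out each array. Applying them to counts at an unadjusted p under 0.05, and leaving out each array for list medians and named list genes, were chosen after seeing the data. No sequences are shown, and genome coordinates were not used.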

Additional observations from a re-analysis of the deposited data

How the results depend on the processing

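The number of the 10 genes past an adjusted p of 0.05 was 0 in each comparison under all 16 alternatives. With the replicate number as a block it was 0, 0 and 0, with 5, 1 and 2 genes at an unadjusted p under 0.05 and medians of 0.42, 0.22 and 0.17 for NEVKP against No Storage, SCS against No Storage and NEVKP against SCS. The numbers share no stated batch, and deviations of same-numbered arrays correlated at -0.14 to 0.13. Of 480 log2 differences of single genes under an alternative, 458 kept their direction and 22 reversed, all of them differences that did not pass. With array weights, CD14 in NEVKP against No Storage was 0.042, TLR3 in SCS against No Storage 0.027 and TLR8 in NEVKP against SCS -0.024. Averaging all probe sets of a gene, TLR9 in NEVKP against SCS was -0.13, and the median for NEVKP against No Storage was 0.26. With array weights the median for SCS against No Storage was 0.37 and for NEVKP against SCS 0.09. Leaving out each array in turn, NEVKP against No Storage ranged from -0.31 to 0.15 for CD14 and from -0.11 to 0.24 for LY96. For SCS against No Storage the ranges were -0.33 to 0.090 for TLR3, -0.15 to 0.40 for CD14 and -0.070 to 0.55 for TLR7. For NEVKP against SCS they were -0.0065 to 0.26 for the median over the 10, -0.15 to 0.45 for TLR4, -0.061 to 0.28 for TLR8, -0.060 to 0.32 for TLR9, -0.00058 to 0.16 for MYD88 and -0.42 to 0.11 for CD14. The cause was not tested. Where leaving out an array left a group with 2 arrays, the shared estimate of the spread served all groups.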

Other observations

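The median SD within a group over the 10 genes was 0.30 in NEVKP, 0.42 in SCS and 0.17 in No Storage, and over all probe sets it was 0.18 in NEVKP, 0.19 in SCS and 0.15 in No Storage (n = 3 each). TLR2 had an SD of 0.18 in NEVKP, 0.45 in SCS and 0.02 in No Storage. The difference in spread was not tested.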
